A study of Homo sapiens with 28 samples.

Results

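The genes described here are FLT3, its downstream transcription factors STAT5A and STAT5B, and 5 genes placed under STAT5: PIM1, PIM2, PIM3, SOCS2 and CISH. They were chosen by name, matched by Ensembl gene identifier, and make up 8 of the 22391 genes in the expression table. All splicing events with these symbols were taken as well, 44 of the 100814 events in the splicing table. MBNL1, an RNA-binding protein that regulates alternative splicing, was depleted by short hairpin RNA in 2 human acute leukaemia cell lines with a rearranged MLL gene, and RNA was sequenced to ask which genes and splice junctions respond. MOLM13 carries MLL-AF9 and was grown in RPMI 1640; MV4;11 carries MLL-AF4 and was grown in IMDM. Cells received 1 of 2 hairpins against MBNL1, shMBNL1-64 or shMBNL1-65, or a non-targeting hairpin (shNT), and were selected with puromycin, so every control carries a hairpin vector too.

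The 28 libraries fell into 9 groups. For MOLM13 there were 3 shNT and 3 shMBNL1-64 libraries taken early (day 4 by the study's description), 3 shNT and 3 shMBNL1-64 libraries taken at day 12, and 4 shMBNL1-65 libraries with 3 shNT libraries of their own. For MV4;11 there were 3 libraries each of shNT, shMBNL1-64 and shMBNL1-65. The sources used here do not state the day of the MV4;11 or the shMBNL1-65 libraries. The study calls the day 12 libraries biological replicates. For the other groups nothing states that libraries came from separate cultures, so there a p-value reflects library-to-library spread, which may be technical. Both MV4;11 knockdown groups were compared with the same 3 controls. Each line is a single established model, and a line and its medium cannot be told apart.

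FLT3 is the receptor tyrosine kinase for FLT3 ligand on early blood progenitors. An internal tandem duplication, which both lines are known to carry, makes the receptor signal without ligand and drives phosphorylation of STAT5. Phosphorylated STAT5 dimers bind DNA at palindromes of the form TTCNNNGAA and induce PIM1 and PIM2, serine/threonine kinases that promote survival and translation, as well as SOCS2 and CISH, SH2-domain proteins that damp cytokine receptor signalling. PIM3 is the remaining kinase of the PIM family. STAT5 activity is set by phosphorylation, which RNA levels do not report.

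The first sequence shown is the promoter of CISH, included because it holds more STAT5 palindromes than any other promoter of these genes in the RefSeq promoter table. Of the 8 genes, 7 had at least 1 entry in that table and SOCS2 had 0. In the 250 bases before each listed start, TTCNNNGAA was found 4 times for CISH and 0 times for FLT3, PIM1, PIM2, PIM3, STAT5A (3 entries) and STAT5B. The palindrome reads the same on both strands, and 6.57% of 35116 promoters of this length held at least 1, while 5 promoters (0.0142%) held 4 or more. A match is a description of the letters only. The CISH window is chr3:50611775-50612024 on the minus strand of GRCh38.p14, printed 5′ to 3′ toward the start with the palindromes in capitals.
CISH promoter: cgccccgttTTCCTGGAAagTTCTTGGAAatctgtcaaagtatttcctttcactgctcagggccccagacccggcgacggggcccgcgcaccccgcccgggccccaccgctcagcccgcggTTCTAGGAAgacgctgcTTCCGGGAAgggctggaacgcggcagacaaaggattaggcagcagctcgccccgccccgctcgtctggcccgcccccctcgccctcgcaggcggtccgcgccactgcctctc

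The second set is the group of SOCS2 splice sites behind the only splicing event of these genes that was called. Exon bases are in capitals, all on the plus strand of GRCh37. The upstream 5′ splice site ends an exon of the transcript SOCS2-202, at chr12:93964983-93965002. The intermediate 5′ splice site ends an exon of SOCS2-205 and of SOCS2-206, at chr12:93965681-93965700. The retained boundary ends an exon of SOCS2-203, at chr12:93966142-93966161, and is counted when a read runs across it into the intron. All of these exons join the same 3′ splice site at chr12:93966451-93966470.
Upstream 5′ splice site: CCCGCGGCAGgtaccggtag
Intermediate 5′ splice site: CGAGGTCGAGgtaagagcgc
Retained boundary: GGATCTGCAGgtgactattt
Shared 3′ splice site: ctctttgtagGCGATCAGTG

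The third is the start of a rarely included FLT3 exon, shown because its inclusion is described below, a choice made after its values were seen. The exon is 132 bases long, at chr13:28599421-28599552 on the minus strand of GRCh37, and is annotated only in FLT3-202, a transcript of the nonsense-mediated decay class. Reading into it from the preceding exon adds 10 coding bases and then a stop codon, in capitals.
FLT3 cassette exon, first 20 bases: taaaaagaaaTGAgctttac

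Values are RPKM, read counts scaled by gene length and by library size, as deposited. Knockdown was compared with its own controls on log2(RPKM + 1) by limma over all genes with a mean of at least 1 RPKM in either group. A gene is called here at p of at most 0.01 with a change of at least 1.5-fold on that scale, and p adjusted over all genes tested (Benjamini-Hochberg) is given beside it. With 3 libraries against 3, an exact permutation test of a single gene cannot go below 0.1, so none is used for the calls. All 8 genes passed the filter in every comparison, the lowest value in any library being 1.79 RPKM for SOCS2. The target MBNL1 averaged 14.4% of control with shMBNL1-64 in MOLM13 at day 4, 16.7% at day 12 and 16.6% in MV4;11. With shMBNL1-65 it averaged 67.3% of control in MOLM13 and 53.3% in MV4;11, so the hairpins differ in how much MBNL1 RNA remained. Low RPKM values lie on whole multiples of 1 step per library, and by these steps the deepest library was read 3.58 times as deeply as the shallowest; the read numbers behind the values of the 8 genes are unknown. Of 9 myeloid markers, 7 were at 1 RPKM or more in all 28 libraries, MPO in 27 and CD14 in 0, and the 7 markers of other cell types summed to at most 2.99 RPKM.

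FLT3 was the most abundant of the 8 genes in RPKM. Its group means ran from 104 RPKM in MOLM13 with shMBNL1-64 at day 4 to 234 RPKM in MV4;11 with shNT, a 2.26-fold range. The 3 lowest group means were those of the 3 shMBNL1-64 groups. In that order only the step from MV4;11 shMBNL1-64 to MOLM13 shMBNL1-64 at day 12 separated neighbouring groups with no shared range. PIM1 spanned the widest range, from 8.67 RPKM in MV4;11 with shMBNL1-64 to 55.7 RPKM in the day 4 MOLM13 controls, and no neighbouring groups in its order were free of overlap. PIM3 ran from 7.33 to 19.0 RPKM and PIM2 from 4.37 to 9.16 RPKM. STAT5A (5.35 to 9.85 RPKM) and STAT5B (7.59 to 12.2 RPKM) varied least by group, while SOCS2 (2.68 to 8.74 RPKM) and CISH (3.96 to 9.94 RPKM) were both lowest in MV4;11 controls and highest in day 4 MOLM13 controls.

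**Figure D1:**
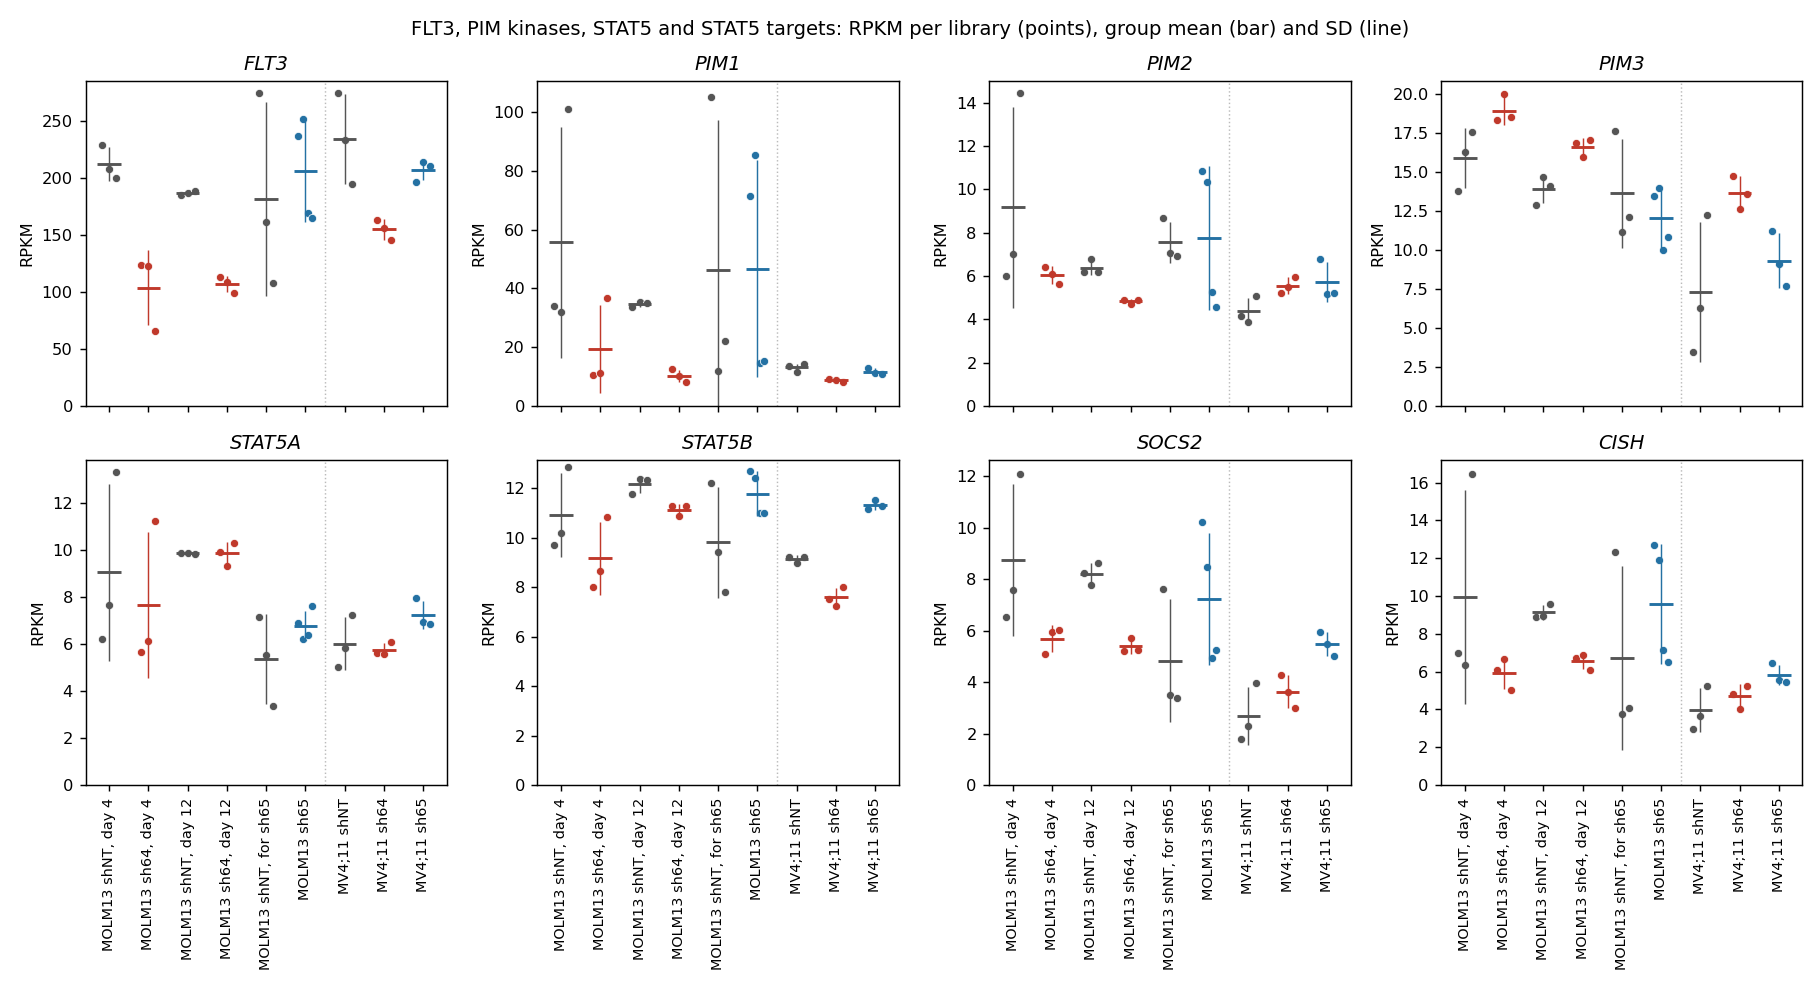
RPKM of the 8 genes (vertical axes, linear from 0) in each of 28 libraries, by group, with shNT in grey, shMBNL1-64 in red and shMBNL1-65 in blue; bars are group means and thin lines 1 SD, cut at 0. FLT3 in the 3 shMBNL1-64 groups averaged 104, 107 and 155 RPKM, each below all libraries of its own controls.

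Several libraries stood apart, and this bears on what follows. The day 4 libraries numbered 3, 1 shNT and 1 shMBNL1-64, resembled each other more than their own groups. PIM1 was 101 RPKM in that control against 34.1 and 31.8 RPKM in the other two, and 36.8 RPKM in that knockdown against 10.6 and 11.0 RPKM. The MOLM13 libraries for shMBNL1-65 split too. The first control library and the first 2 knockdown libraries held 105, 71.4 and 85.4 RPKM of PIM1, and the other 4 held 11.9 to 21.9 RPKM. Values without the libraries numbered 3, or without the first control for shMBNL1-65, stand beside the results they moved.

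The day 12 comparison asked whether FLT3 and its pathway differed after prolonged MBNL1 depletion, and it had the tightest replicates. FLT3 fell to 57.3% of control and PIM1 to 29.4%, and these were the 2 of 8 genes called lower, against 2.25% of the 10094 genes tested. FLT3 measured 185, 187 and 189 RPKM in the shNT libraries and 113, 109 and 99.1 RPKM in the shMBNL1-64 libraries. All 3 knockdown libraries lay below all 3 controls, a log2 fold change of -0.80 ± 0.05 (SE, n = 3 per group) with limma adjusted p = 2.68e-05. In bulk RNA, fewer cells that express a gene and less RNA per cell cannot be told apart. PIM1 measured 33.7, 35.5 and 35.1 RPKM with shNT and 12.4, 10.1 and 8.19 RPKM with shMBNL1-64. Again no knockdown library reached the control range, at -1.69 ± 0.12 and limma adjusted p = 2.99e-05.

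The other STAT5 targets were lower at day 12 by less than the 1.5-fold limit. SOCS2, a feedback inhibitor, measured 8.23, 7.78 and 8.64 RPKM with shNT and 5.22, 5.73 and 5.24 RPKM with shMBNL1-64. Its log2 fold change was -0.53 ± 0.05 and the limma adjusted p = 0.00015. SOCS2 overlaps the antisense transcript SOCS2-AS1 on chromosome 12 (93963590 to 93977263 and 93935798 to 93965544 in GRCh37), the sources used here do not say whether counting used strand, and SOCS2-AS1 averaged 64.6% of control. CISH measured 8.89, 8.95 and 9.58 RPKM against 6.70, 6.88 and 6.11 RPKM, a difference of -0.42 ± 0.05 with limma adjusted p = 0.000452. PIM2 measured 6.16, 6.79 and 6.19 RPKM against 4.87, 4.70 and 4.89 RPKM, or -0.34 ± 0.05 with limma adjusted p = 0.000746. In each of these 3 genes every knockdown library lay below every control. An adjusted p under 0.05 at any size was reached by 6 of the 8 genes in the lower direction, where 19.3% of all genes tested did so, and by 1 gene, PIM3, in the higher direction, where 30.4% did.

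PIM3 differed in the other direction. It measured 12.9, 14.7 and 14.1 RPKM with shNT and 16.9, 16.0 and 17.1 RPKM with shMBNL1-64. The difference was 0.24 ± 0.05 with limma adjusted p = 0.00714. The 2 transcription factors differed least. STAT5B measured 11.8 to 12.4 RPKM against 10.9 to 11.3 RPKM, or -0.12 ± 0.04 with limma adjusted p = 0.0441, and STAT5A measured 9.81 to 9.87 RPKM against 9.33 to 10.3 RPKM, or -0.00 ± 0.05. STAT5A and STAT5B are near-identical in sequence over much of their coding region and overlap at their starts on opposite strands of chromosome 17 (40439565 to 40463961 and 40351194 to 40440651 in GRCh37), so reads could be split between them. Libraries did not overlap between groups for 7 of 8 genes, where 59.6% of all genes tested were free of overlap. The median log2 fold change of the 8 genes was -0.38, and that of all genes 0.04.

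At day 4 the spread between libraries was wider. FLT3 was the 1 gene of 8 called, at 48.9% of control, where 1.09% of the 10289 genes tested were called lower. It measured 228, 208 and 200 RPKM in the shNT libraries and 123, 123 and 65.4 RPKM in the shMBNL1-64 libraries. No knockdown library reached the control range, and the log2 fold change was -1.08 ± 0.27 with limma adjusted p = 0.269. The call was lost when any 1 of the 3 control libraries was left out and with no filter on low values. No gene in the table reached an adjusted p under 0.05 in this comparison by limma, while 1055 had an unadjusted p under 0.05. Of the 8 genes 3 had libraries free of overlap, where 18% of all genes did, and the median log2 fold change of the 8 was -0.47.

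PIM1 averaged 34.9% of control at day 4, with control libraries of 34.1, 31.8 and 101 RPKM and knockdown libraries of 10.6, 11.0 and 36.8 RPKM. The ranges overlapped through the libraries numbered 3, and PIM1 was not called (-1.49 ± 0.63, limma adjusted p = 0.496). Same-numbered day 4 libraries deviated together, so a fit with the number as a block was compared. In it PIM1 was called lower, at -1.49 with limma adjusted p = 0.00439, and FLT3 reached limma adjusted p = 0.0157. Without both libraries numbered 3, a comparison chosen after the data were seen, the log2 fold changes were -1.52 for PIM1 (limma adjusted p = 0.000766) and -0.82 for FLT3 (limma adjusted p = 0.00287). The share of all genes called is not reported here for either fit, so these calls have no background beside them.

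The remaining genes were not called at day 4. SOCS2 measured 6.55, 7.57 and 12.1 RPKM with shNT and 5.09, 5.95 and 6.03 RPKM with shMBNL1-64, free of overlap at -0.50 ± 0.23 (limma adjusted p = 0.539). CISH measured 7.01, 6.35 and 16.5 RPKM against 6.101, 6.65 and 5.04 RPKM, and without the libraries numbered 3 its difference was -0.06 in place of -0.55. PIM2 likewise went from -0.44 to -0.05, so the day 4 values of these 2 genes rested on the control library numbered 3, at 16.5 and 14.5 RPKM. PIM3 was 19.0 RPKM against 15.9 RPKM on average (0.25 ± 0.14), the single gene of the set with a positive sign at both days. The interaction of day with hairpin called 0 of the 8 genes and gave 0 with an unadjusted p under 0.05 by limma. Of 10583 genes, 0.397% were called and 430 had an unadjusted p under 0.05. For FLT3 that interaction was 0.28 ± 0.29 and for PIM1 -0.19 ± 0.70 (limma adjusted p of 1.00 for both). Day 12 libraries were sequenced apart from the others on another instrument, so day and sequencing run cannot be told apart.

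**Figure D2:**
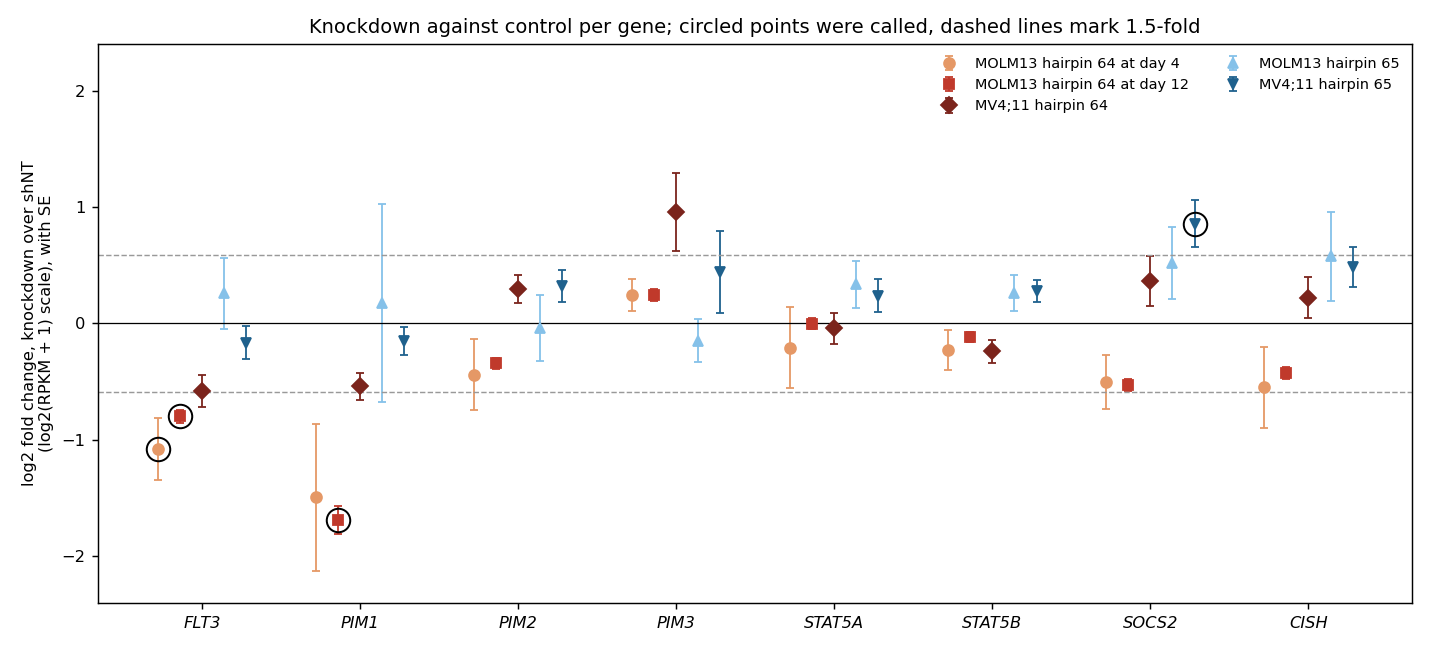
Log2 fold change of knockdown over shNT on the log2(RPKM + 1) scale with its SE (vertical axis) for the 8 genes in 5 comparisons; circled points were called and dashed lines mark 1.5-fold. FLT3 lay at -1.08, -0.80 and -0.58 with shMBNL1-64 and at 0.26 and -0.16 with shMBNL1-65.

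In MV4;11 the strong hairpin gave lower FLT3 and PIM1 by less than the limit of the call. FLT3 measured 274, 233 and 195 RPKM in the shNT libraries and 163, 156 and 145 RPKM in the shMBNL1-64 libraries, without overlap. The log2 fold change was -0.58 ± 0.14 with limma adjusted p = 0.0443, just short of 1.5-fold. PIM1 measured 13.4, 11.7 and 14.2 RPKM against 9.31, 8.71 and 8.004 RPKM, also without overlap, at -0.54 ± 0.11 and limma adjusted p = 0.0343. So 0 of 8 genes were called by limma, where 6.51% of the 10177 genes tested were. An unadjusted limma p under 0.05 was reached by 5 of the 8 and by 3451 of the 10177. Adjusted p was under 0.05 at any size in the lower direction for 2 of the 8 genes and for 3.83% of all genes. Libraries did not overlap for 5 of the 8 genes and for 38.1% of all genes, and the median log2 fold change of the 8 was 0.09.

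The targets SOCS2 and CISH had the opposite sign in MV4;11 from that in MOLM13 with the same hairpin. SOCS2 measured 1.79, 2.30 and 3.96 RPKM with shNT and 4.29, 3.62 and 3.00 RPKM with shMBNL1-64, overlapping ranges with a difference of 0.37 ± 0.21. CISH measured 2.97, 3.67 and 5.246 RPKM against 4.82, 4.04 and 5.26 RPKM (0.22 ± 0.17). PIM2 was 4.15, 3.89 and 5.06 RPKM in controls and 5.19, 5.51 and 5.96 RPKM in knockdown libraries, without overlap at 0.29 ± 0.12 (limma adjusted p = 0.128). PIM3 measured 3.45, 6.29 and 12.3 RPKM in controls and 14.8, 12.7 and 13.6 RPKM with shMBNL1-64, a 3-library control spread of 4.503 RPKM (SD), and was 0.96 ± 0.33 higher with limma adjusted p = 0.0954.

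Control library 3 of MV4;11 was the highest of its group for 6 of these genes and the lowest for FLT3. Without it FLT3 (-0.71), PIM3 (1.36) and SOCS2 (0.60) were all called in MV4;11 with shMBNL1-64, with limma adjusted p of 0.000699, 0.000639 and 0.00501. This was 1 of 6 fits that each left out 1 library, and they called from 0 to 3 of the 8 genes. The share of all genes called in this fit is not reported here, so these calls have no background beside them. The interaction of line with hairpin, between MV4;11 and day 4 MOLM13, called 0 of 8 genes by limma, where 0.653% of 10714 genes were called. An unadjusted limma p under 0.05 was reached by 337 of the 10714 and by 1 gene of the 8. That gene was SOCS2 at 0.87 ± 0.34 (limma adjusted p = 1.00). For PIM1 the interaction was 0.95 ± 0.67 and for FLT3 0.50 ± 0.32. That test ignored the pairing of the day 4 libraries and left the day 12 libraries out, so 2 further fits were made, both chosen after the data were seen. With the replicate number as a block for the day 4 libraries, PIM1 was the 1 gene of 8 called (0.95 ± 0.14, limma adjusted p = 0.0262), where 2.12% of 10714 genes were called, and SOCS2 was not (0.87 ± 0.29, limma adjusted p = 0.342).

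With day 12 MOLM13 in place of day 4, 4 of the 8 genes had a called interaction, all higher in MV4;11, where 2.69% of 10634 genes were called higher. The PIM1 difference was negative in both lines and smaller in MV4;11, by 1.15 ± 0.17 (limma adjusted p = 0.00252). PIM2 (0.63 ± 0.12, limma adjusted p = 0.0114), SOCS2 (0.89 ± 0.24, limma adjusted p = 0.0488) and CISH (0.65 ± 0.20, limma adjusted p = 0.0701) had opposite signs in the lines. The call of CISH was lost when any 1 of 10 of the 12 libraries was left out, at values of 0.50 to 0.68, and that of PIM2 without MV4;11 shNT library 2 (0.57). Without MV4;11 shNT library 3, PIM3 was called too, at 1.12 in place of 0.71. With spread estimated over all 28 libraries 0 of the 8 interactions were called by limma, and 2 genes, PIM3 and SOCS2, had an unadjusted p under 0.05. FLT3 had an interaction of 0.22 ± 0.15 and was not called. In this comparison line, day and sequencing run cannot be told apart.

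With shMBNL1-65 in MV4;11, SOCS2 was the 1 gene of 8 called, and it was higher, where 1.78% of the 10197 genes tested were called higher. It measured 1.79, 2.30 and 3.96 RPKM in controls and 5.94, 5.48 and 5.02 RPKM in the knockdown libraries, 204% of control and free of overlap. The log2 fold change was 0.86 ± 0.20 with limma adjusted p = 0.0794, and the call was lost without shNT library 2 or shMBNL1-65 library 1. Libraries did not overlap for 4 of the 8 genes and for 26.1% of all genes. CISH averaged 147% of control, at 6.46, 5.57 and 5.44 RPKM against 2.97, 3.67 and 5.246 RPKM (0.48 ± 0.17, limma adjusted p = 0.17). The overlapping SOCS2-AS1 averaged 150% of control in the same comparison, and its part in the SOCS2 value was not tested.

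FLT3 was not called under shMBNL1-65 in MV4;11, with 196, 214 and 210 RPKM inside the control range of 195 to 274 RPKM (-0.16 ± 0.14). PIM1 measured 12.9, 11.2 and 11.0 RPKM (-0.15 ± 0.12). Set against each other, the hairpins gave different levels of most of these genes in MV4;11. With shMBNL1-64 FLT3 stood at 74.8% of its level with shMBNL1-65 (-0.42 ± 0.07, limma adjusted p = 0.00506), PIM1 at 74.2% (limma adjusted p = 0.0121), SOCS2 at 66.4% (limma adjusted p = 0.0125), STAT5A at 79.6% (limma adjusted p = 0.0283) and STAT5B at 67.0% (-0.52 ± 0.06, limma adjusted p = 0.0011). PIM3 stood at 147% (limma adjusted p = 0.0164). STAT5B measured 7.51, 7.25 and 8.0025 RPKM with shMBNL1-64, 9.24, 8.97 and 9.22 RPKM with shNT, and 11.2, 11.5 and 11.3 RPKM with shMBNL1-65, 3 ranges that did not touch. In this comparison 0 of 8 genes reached 1.5-fold and were called by limma, where 3.38% of 10227 genes were. An unadjusted limma p under 0.05 was reached by 7 of the 8 and by 3915 of the 10227. An adjusted p under 0.05 at any size was reached by 6 of the 8 genes and by 24% of all genes.

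In MOLM13 with shMBNL1-65, 0 of the 8 genes were called and 0 had an unadjusted p under 0.05 by limma. Of the 10156 genes tested, 3.24% were called and 1851 had an unadjusted p under 0.05. FLT3 measured 274, 162 and 108 RPKM in the controls and 236, 251, 169 and 165 RPKM in the knockdown libraries. Its difference was 0.26 ± 0.30 (n = 3 and 4), and the range of the controls enclosed all 4 knockdown libraries. PIM1 measured 105, 11.9 and 21.9 RPKM against 71.4, 85.4, 14.7 and 15.4 RPKM, at 0.17 ± 0.85. CISH measured 12.3, 3.76 and 4.05 RPKM against 12.7, 11.9, 7.16 and 6.52 RPKM. Leaving out the first control library raised its difference from 0.58 to 1.06, where it was called (limma adjusted p = 0.0572). The share of all genes called without that library is not reported here.

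The split among these 7 libraries ran through 7 of the 8 genes, all but STAT5A. In each of the 7 genes the 3 highest values fell in the first control and the first 2 knockdown libraries. The share of all genes split in this way was not counted. Over 10003 genes the first control had a Pearson r of 0.982 and 0.993 with those 2 knockdown libraries. With the other controls it had 0.963 and 0.956. SOCS2 was 7.61 RPKM in the first control and 10.2 and 8.49 RPKM in the first 2 knockdown libraries, against 3.39 to 5.27 RPKM in the other 4. PIM2 was 8.66 to 10.9 RPKM and CISH 11.9 to 12.7 RPKM in the same 3 libraries. The interaction of hairpin in MOLM13, each against its own controls, called 0 of 8 genes by limma, where 2.12% of 10578 genes were called. An unadjusted limma p under 0.05 was reached by 864 of the 10578 and by 2 of the 8. These were FLT3 at 1.34 ± 0.45 (limma adjusted p = 0.421) and SOCS2 at 1.02 ± 0.42 (limma adjusted p = 0.529).

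**Figure D3:**
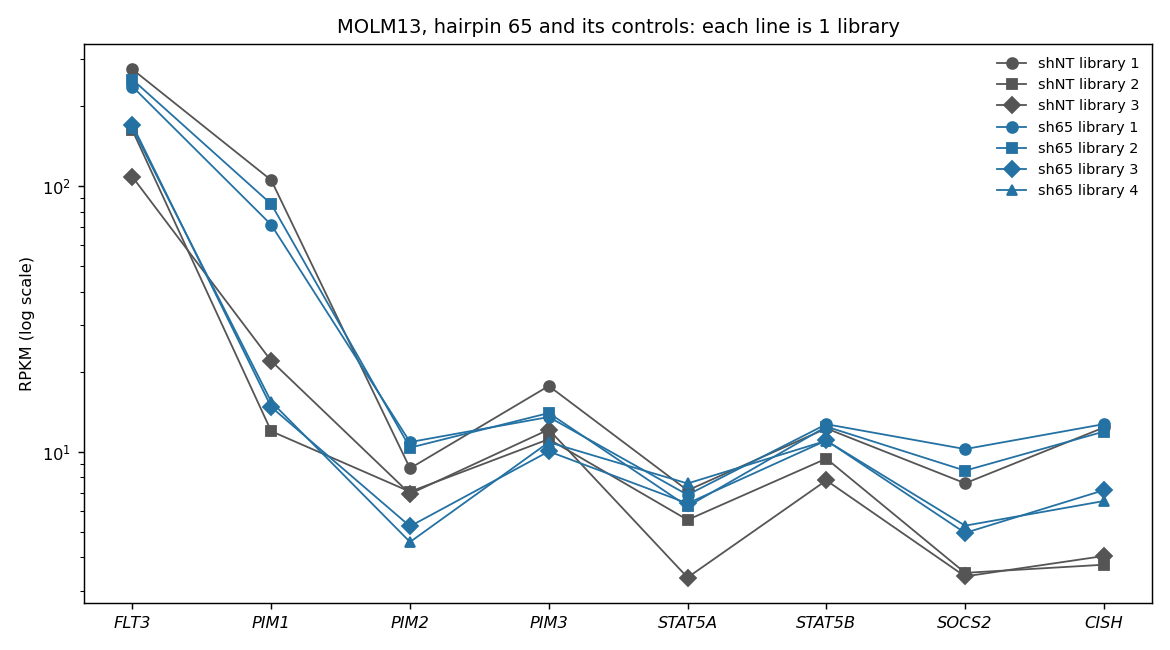
RPKM on a log scale (vertical axis) of the 8 genes in the 3 shNT libraries (grey) and 4 shMBNL1-65 libraries (blue) of MOLM13, 1 line per library. For PIM1, shNT library 1 and shMBNL1-65 libraries 1 and 2 lay at 71.4 to 105 RPKM and the other 4 at 11.9 to 21.9 RPKM.

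Between control cells of the lines 1 of the 8 genes was called, PIM2, lower in MV4;11 than in the MOLM13 controls for shMBNL1-65. Of the 10222 genes tested, 7.62% were called lower. PIM2 measured 4.15, 3.89 and 5.06 RPKM in MV4;11 and 8.66, 7.07 and 6.94 RPKM in the MOLM13 controls for shMBNL1-65 (-0.67 ± 0.18, limma adjusted p = 0.0349). The ranges were apart, though the call was lost without the first MOLM13 control library, where the change was -0.58, or without MV4;11 library 1 or 2. PIM1 averaged 13.1 RPKM in MV4;11 and 46.3 RPKM in MOLM13, but 2 of the 3 MOLM13 controls lay at 11.9 and 21.9 RPKM and the difference was not called (-1.17 ± 0.59). SOCS2 and CISH averaged 55.5% and 59.0% of their MOLM13 level, with overlapping ranges. That comparison used only the MOLM13 controls that split. As a description with no test, the MV4;11 controls lay below all 6 day 4 and day 12 MOLM13 controls in PIM1 (11.7 to 14.2 against 31.8 to 101 RPKM), SOCS2 (1.79 to 3.96 against 6.55 to 12.1 RPKM), CISH (2.97 to 5.246 against 6.35 to 16.5 RPKM) and PIM3 (3.45 to 12.3 against 12.9 to 17.6 RPKM). The same held for PIM2 (3.89 to 5.06 against 5.995 to 14.5 RPKM) and STAT5B (8.97 to 9.24 against 9.71 to 12.9 RPKM). FLT3 and STAT5A overlapped. The share of all genes separated in this way was not counted, so the separation cannot be read as particular to these genes. The day 12 controls were also sequenced on another instrument.

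Other genes of the pathway were counted by list. At day 12, 3.27% of all genes tested were called higher and 2.25% lower. In that comparison 2 of 22 tested FLT3 adaptors and cytoplasmic regulators were called higher, with a list median of 0.08: SRC, a cytoplasmic tyrosine kinase (3.35 against 1.15 RPKM, log2 fold change 1.01), and PTPRJ, a phosphatase known to act on FLT3 (10.8 against 6.61 RPKM, 0.63). Of 9 other STAT5 target genes tested, 1 was called, ID1, which was lower (2.56 against 4.85 RPKM, -0.71), and the list median was -0.05. Of 6 RAS-ERK output genes tested, ETV5 was called lower (2.32 against 4.40 RPKM, -0.70). Of 13 JAK kinases, other STATs and their regulators, 19 PI3K, AKT and mTOR genes, 11 PIM substrates, 7 FLT3 ligand and folding factors and 5 transcription factors at FLT3, 0 were called at day 12. FLT3LG, the ligand, averaged 1.04 RPKM with shMBNL1-64 and 1.05 RPKM with shNT. Of 8 myeloid markers tested, 4 were called higher and 1 lower, with a list median of 0.51. LYZ averaged 3771 against 801 RPKM, MPO 75.7 against 7.22 RPKM, FCGR1A 25.5 against 13.7 RPKM and ITGAM 4.71 against 17.0 RPKM, and the part of this in the FLT3 values was not tested.

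At day 4 the same lists held 0 called genes apart from the myeloid markers. Of all genes tested 1.09% were called lower, and the share called higher is not reported here. Of these markers LYZ (3744 against 1318 RPKM) and FCGR1A (36.0 against 13.3 RPKM) were called higher. In MV4;11 with shMBNL1-64, where 3.89% of all genes tested were called higher and 2.62% lower, SRC was again called higher (9.60 against 4.31 RPKM, 1.00), with SLA, an adaptor that promotes receptor breakdown (11.6 against 7.43 RPKM, 0.59), the 2 called of 22 in their list. Of 9 other STAT5 targets, 1 was called higher, CDKN1A (84.9 against 53.4 RPKM), and 1 lower. Of 11 PIM substrates, BAD was called higher and SKP2 and CXCR4 lower. Of 19 PI3K, AKT and mTOR genes 2 were called higher, PIK3R2 and RPTOR, and 1 lower. In that comparison LYZ was called lower (1404 against 2313 RPKM), the opposite sign from MOLM13, and MPO and CSF1R higher. With shMBNL1-65 in MV4;11, where 1.78% of all genes tested were called higher and 1.85% lower, 1 of 8 other STAT5 targets was called lower and 0 higher. CXCR4, of 11 PIM substrates, was called lower, PIK3R2, of 19 PI3K, AKT and mTOR genes, higher, and LYZ lower among the markers. MOLM13 with shMBNL1-65, where 3.24% of all genes tested were called, had RICTOR, of 19 PI3K, AKT and mTOR genes, called higher.

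The splicing table gives PSI, the share of local junction reads that support the junction examined. Of the 44 events, FLT3 had 12, STAT5A 10, SOCS2 6, PIM3 and STAT5B 4 each, PIM1 and PIM2 3 each and CISH 2. Many of these share junctions or swap examined and background junction, so they are not independent. Between 40 and 41 events could be tested in a comparison, and 3 STAT5A events had no value in any library. An event is called at limma p of at most 0.01 with a difference of more than 10 percentage points.

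A single event was called, in SOCS2, in 3 comparisons that all involve shMBNL1-64. It examines the junction from the upstream 5′ splice site to the shared 3′ splice site, which skips 1468 bases, with reads that run across the retained boundary as its background. At day 12 in MOLM13 its PSI was 21.5%, 25.2% and 19.9% in the shNT libraries and 36.99%, 39.1% and 38.2% in the shMBNL1-64 libraries. The knockdown values lay close together and above every control, a difference of 15.9 ± 1.62 points with limma adjusted p = 0.0403. It was the 1 of 41 events called higher, where 1.15% of the 79198 events tested were. In MV4;11 the PSI was 24.0%, 21.1% and 26.7% with shNT and 44.7%, 36.0% and 43.9% with shMBNL1-64, a difference of 17.6 ± 3.05 points with limma adjusted p = 0.217. Its call was lost when shNT library 1 or 2 or shMBNL1-64 library 1 or 3 was left out, with differences of 16.0 to 20.3 points over the 6 libraries. Of 40 events tested it was again the 1 called higher, where 0.78% of 74197 events were.

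The same SOCS2 event at day 4 read 27.6%, 24.5% and 23.0% in controls and 29.4%, 38.0% and 39.3% with shMBNL1-64. All knockdown libraries lay above all controls, but the difference of 10.5 ± 3.23 points was not called (limma adjusted p = 0.53; adjusted p = 0.66 with the replicate block). With shMBNL1-65 it was not called, and PSI averaged 23.5% against 23.5% in MOLM13 and 22.1% against 23.9% in MV4;11. Set directly against each other in MV4;11, the hairpins differed by 19.5 ± 3.64 points (limma adjusted p = 0.329). The event was the 1 of 41 called higher there, where 0.514% of 76590 events were. A second event swaps the examined and the background reads of the first, and its PSI had the same sign rather than the opposite one. It averaged 18.2% with shMBNL1-64 against 12.4% at day 4 (limma adjusted p = 0.543), 15.8% against 12.1% at day 12 (limma adjusted p = 0.53) and 8.26% against 3.84% in MV4;11 (limma adjusted p = 0.903). With shMBNL1-65 it averaged 18.9% against 12.2% in MOLM13 (limma adjusted p = 0.59) and 14.6% against 3.84% in MV4;11 (limma adjusted p = 0.917), so the PSIs of the pair did not add to 100%. Reads from the intron into the shared 3′ splice site, with the upstream junction as background, also had a higher PSI in every knockdown. They were called in none. With shMBNL1-64 they averaged 16.1% against 11.3% at day 4, 13.8% against 10.7% at day 12 and 7.23% against 3.53% in MV4;11. With shMBNL1-65 they averaged 18.9% against 12.3% in MOLM13 and 13.3% against 3.53% in MV4;11. The intermediate 5′ splice site, examined with the retained boundary as background, had a lower PSI in every knockdown and was called in none. With shMBNL1-65 in MOLM13 it averaged 10.4% against 20.4% (-10.0 ± 2.9 points, limma adjusted p = 0.485), the largest difference, and in MV4;11 20.9% against 22.1%. With shMBNL1-64 it averaged 8.59% against 15.8% at day 4 (limma adjusted p = 0.226), 9.89% against 13.03% at day 12 and 16.1% against 22.1% in MV4;11. Beside this, the log2 fold change of SOCS2 RNA was -0.53 at day 12 and 0.37, not called, in MV4;11.

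**Figure D4:**
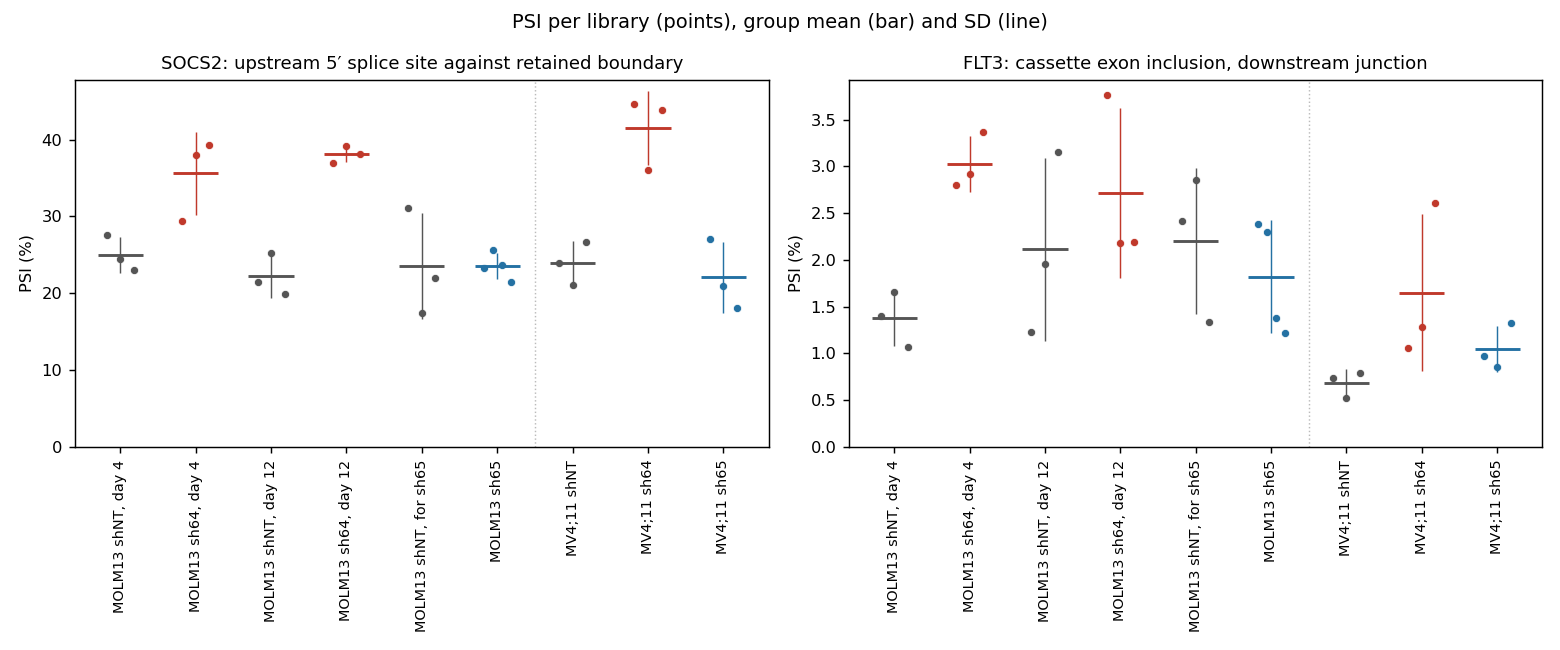
PSI in percent (vertical axes from 0) per library by group, with group means (bars) and SD (lines), for the SOCS2 upstream splice site event and for inclusion of the rare FLT3 exon. SOCS2 PSI was 29.4% or more in all 9 shMBNL1-64 libraries and 31.1% or less in the 19 others.

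The uncalled events described from here on were chosen after their values were seen. For FLT3, reads into the rarely included exon were few in every library. Inclusion by its downstream junction was 1.40%, 1.65% and 1.07% in day 4 controls and 2.80%, 2.91% and 3.37% with shMBNL1-64. The ranges were apart, by 1.65 ± 0.24 points (limma adjusted p = 0.159), far under the 10-point limit. At day 12 the same junction gave 2.71% against 2.11% with overlapping ranges, while the upstream junction of the exon gave 2.57%, 2.79% and 3.31% against 1.24%, 0.78% and 1.48% (1.72 ± 0.30 points, limma adjusted p = 0.128). In MV4;11 with shMBNL1-64 downstream inclusion was 1.06%, 1.29% and 2.61% against 0.741%, 0.523% and 0.796% in controls, without overlap (0.963 ± 0.47 points, limma adjusted p = 0.786). The upstream junction there overlapped, at 0.266%, 0.653% and 0.512% against 0.643%, 0.175% and 0.400% (0.071 ± 0.18 points, limma adjusted p = 1), and at day 4 it averaged 0.999% against 0.320% (limma adjusted p = 0.336). The sign was the same for both junctions in the 3 shMBNL1-64 comparisons, and downstream inclusion never passed 3.76%. It was not particular to that hairpin. With shMBNL1-65 in MV4;11 downstream inclusion averaged 1.05% against 0.687%, without overlap, and upstream inclusion 0.557% against 0.406%, with overlap. In MOLM13 with shMBNL1-65 the signs differed, at 1.82% against 2.20% downstream and 1.59% against 0.940% upstream.

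No other event of these genes was called. In the comparisons with 0 calls by limma, 7 of 41 events had an unadjusted p under 0.05 at day 4, 7 of 40 in MOLM13 with shMBNL1-65, 1 of 40 in MV4;11 with shMBNL1-65 and 3 of 40 between the control lines. The events called in these comparisons over the whole table were 1.73%, 1.28%, 0.866% and 1.16%. A call also needs the smaller p and the 10-point difference, so these shares are no background for the counts at p under 0.05. The share of all events with an unadjusted p under 0.05 was not counted. Counted over comparisons, 9 tests of an event reached the p limit without the 10-point difference, with sizes from 0.678 to 7.86 points. The largest was in PIM1, where the junction of an event annotated as an alternative promoter stood at 95.5%, 98.3% and 100% with shMBNL1-64 at day 12 against 92.2%, 89.8% and 88.3% (7.86 ± 1.64 points, limma adjusted p = 0.19). In MOLM13 with shMBNL1-65 it was CISH, with an intron read through at 8.16% against 2.23% (5.93 ± 1.5 points, limma adjusted p = 0.42).

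As a description of pattern, the genes whose mean log2 level over the 9 groups was most like FLT3 were APOL4 (Pearson r = 0.974), PLEKHB2 (0.945) and ALDH1A3 (0.937), from 3060 candidates. For PIM1 they were ICAM2 (0.959), DHCR7 (0.959) and TGM2 (0.949). For SOCS2 they were COMTD1 (0.952), D2HGDH (0.946) and C16orf74 (0.944), and for CISH PABPC1L (0.980), D2HGDH (0.959) and SAP25 (0.942). The nearest gene was ZC3H3 for PIM3 (0.988), SPATC1L for PIM2 (0.941), ANKRD13B for STAT5A (0.942) and DENND6A for STAT5B (0.969). These values rest on 9 points of 2 lines that share controls and the 8 genes themselves were not candidates.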

How the data were processed

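Reads of TruSeq RNA libraries were aligned by the authors with STAR to GRCh37 (hg19) and quantified with AltAnalyze on Ensembl annotation. The deposited RPKM table and the deposited PSI fraction table (MultiPath-PSI, fractions printed here as percent) keep every library separate, and a summary difference column of the authors was not used. The columns of 3 MOLM13 controls name their group but no replicate. Two-group comparisons used limma 3.58.1 in R 4.3.3 on log2(RPKM + 1), for genes averaging 1 RPKM or more in either group, and on PSI measured in over 50% of each group's libraries, with Benjamini-Hochberg adjustment over all features. The study's stated limits set the calls. The genes and lists were chosen with earlier results of these data known. All 8 genes, called events, at most 4 called genes per list (those of smallest p) and the 3 nearest genes by pattern are named; some called genes of the lists are not reported here. Same-numbered day 4 libraries deviated together (r = 0.848, 0.799 and 0.882 in expression, 0.168, 0.105 and 0.300 in PSI); those of MV4;11 and day 12 did not. On simulated data for 10195 genes at day 4, 78.0% of 2-fold and 91.0% of 4-fold changes were recovered, and at day 12, for 9951 genes, 99.0% and 100%. Python 3.11.15 and matplotlib 3.10.9 drew the figures. Alternatives covered the pseudocount, filter, scaling, trend, pooled fit, block and leaving out each library.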

Additional observations from a re-analysis of the deposited data

Results flagged for a closer look

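In the single group of 4 libraries, MOLM13 with shMBNL1-65, 8 of 52 sets of values (11 genes and 41 events) had 1 library far from the other 3 by Dixon's 95% limit. That limit flags about 1 in 20 sets by chance only if values are independent and normally spread. Some flagged sets hold values tied at 0% or 100%, and the FLT3 and PIM3 introns were counted by more than 1 event. So 8 of 52 cannot be set against that rate. All 8 were splicing events at low or near-complete PSI. Reads into the FLT3 intron between chr13:28601378 and 28602315 gave 0% in 1 library against 0.977% to 1.11%, and splicing of that intron 100% against 97.8% to 98.1%. Splicing of 2 STAT5A introns stood at 94.1% and 97.4% in 1 library each, against 100% in the others. A STAT5B junction annotated as an alternative promoter was used at 1.28% in 1 library and 0% in the others, and its cassette exon junction at 82.3% against 92.8% to 93.3%. The PIM3 intron between chr22:50356513 and 50356588 was retained at 11.5% against 3.32% to 4.38%, and spliced at 80.1% against 91.3% to 93.4%.

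PIM2 had opposite signs with shMBNL1-64 in the 2 lines, though it was called in neither. Every library lay below every control in MOLM13 at day 12 (-0.34) and above every control in MV4;11 (0.29, limma adjusted p = 0.128). The interaction of line with hairpin was called for PIM2 with the day 12 MOLM13 libraries (0.63, limma adjusted p = 0.0114), a fit chosen after the data were seen, and not with the day 4 libraries (0.73 ± 0.34, limma adjusted p = 1.00). The day 12 interaction was also called for PIM1 (1.15), SOCS2 (0.89) and CISH (0.65).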

How the results depend on the processing

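At day 12 the calls of FLT3 and PIM1 stayed under every leave-one-out (2 to 2 genes called) and every other alternative but the fit over all 28 libraries, where 1 gene, FLT3, was called and PIM1 was not, and SOCS2 was called too with a pseudocount of 0.1 (-0.60). At day 4 the 1 call became 0 with no filter on low values and at an adjusted p under 0.05, 0 to 1 leaving out a library, 2 with the replicate block and 2 without both libraries numbered 3, which was chosen after the data were seen; splicing went from 0 calls to 1 in the fit over all 28 libraries and ranged 0 to 1. In MOLM13 with shMBNL1-65, leaving out a library gave 0 to 1 genes and 0 to 4 events, the most without the first control library, and the fit over all 28 libraries 1 event. In MV4;11 with shMBNL1-64 the 0 genes became 1 with a pseudocount of 0.1 (PIM1), 1 in the fit over all 28 libraries (PIM3), 1 with the replicate block (PIM3, not paired by the check) and 0 to 3 leaving out a library, while the 1 event became 0 at a difference over 0.2 (20 points) and at an adjusted p under 0.05, and 0 to 1 leaving out a library; the SOCS2 event itself lost its call without shNT library 1 or 2 or shMBNL1-64 library 1 or 3. In MV4;11 with shMBNL1-65 the 1 gene became 0 with no filter and at an adjusted p under 0.05 and 0 to 3 leaving out a library, 3 without shNT library 3, and events went to 1 in the fit over all 28 libraries and 0 to 1. At day 12 the 1 event became 0 at a difference over 0.2 and 1 to 2 leaving out a library. Between control lines the ranges were 0 to 2 genes and 0 to 1 events; between hairpins in MV4;11, 1 gene (with a pseudocount of 0.1) and 0 to 1; for the line interaction 0 to 2, and 1 with the replicate block of the day 4 MOLM13 pairs; for the line interaction with day 12 MOLM13, a comparison chosen after the data were seen, 2 in place of 4 with no filter, 0 in the fit over all 28 libraries and 2 to 5 leaving out a library; for the hairpin interaction 2 in the fit over all 28 libraries and 0 to 3. The causes of these changes were not tested. No share of all genes or events called is given for an alternative other than the blocked line interaction. The block changed no other call of these genes, and same-numbered libraries of MV4;11 and day 12 did not deviate together. No paired analysis was possible for MOLM13 with shMBNL1-65 because its control columns carry no numbers.

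Signs that turned did so only leaving out a library. STAT5A ranged from -0.48 to 0.079 at day 4, -0.15 to 0.078 in MV4;11 with shMBNL1-64, -0.030 to 0.033 at day 12, -0.15 to 0.079 in the line interaction with day 12 MOLM13, and -0.070 to 0.38 between control lines, where STAT5B ranged from -0.21 to 0.083. In MOLM13 with shMBNL1-65 FLT3 ranged from -0.061 to 0.61, PIM1 from -0.47 to 1.05, PIM2 from -0.22 to 0.15, PIM3 from -0.27 to 0.040 and the SOCS2 event from -2.99 to 3.78 points; that event ranged from -4.40 to 0.0777 points in MV4;11 with shMBNL1-65 and from -2.58 to 4.19 points between control lines.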
